A study of Mus musculus with 4 samples.

Results

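The keratin genes of the mouse lie in a pair of clusters, and the sites where the cohesin subunit RAD21 was found in and around them are described here. Members were the protein-coding genes of the GENCODE vM1 annotation of the mm9 genome whose symbol is Krt followed directly by a number and that lie on chromosome 11 or 15, so that the keratin-associated protein genes (Krtap) were left out. This gave 51 genes of 21418 autosomal protein-coding genes, 27 of them on chromosome 11 (Krt222 to Krt42, the type I cluster) and 24 on chromosome 15 (Krt80 to Krt18, the type II cluster). Krt18 is a type I gene that stands at the end of the type II cluster, and Krt72-ps was annotated as protein coding and was counted by the same rule. RAD21 was mapped by chromatin immunoprecipitation and sequencing in R1/E mouse embryonic stem cells (ESC, day 0) and in embryoid bodies (EB), the aggregates that these cells form when they differentiate, at day 12. Both groups carried a bacterial artificial chromosome with a GFP-tagged Rad21 in addition to their own gene, so the sites are those of the tagged protein. The RAD21 libraries were made with a goat antibody to GFP, and the control libraries, whose labels name a goat IgG isotype control and also input DNA, are called IgG here. There was 1 library of each kind in each group and therefore no replicate, so that no test between the groups was made and every interval below is a 95% interval that covers counting error only. The libraries held 13714772 (ESC RAD21), 7740389 (EB RAD21), 12602155 (ESC IgG) and 6929293 (EB IgG) autosomal reads, and levels are given as reads per 1000000 autosomal reads (RPM). In cells in bulk, fewer cells with RAD21 at a site and less RAD21 per cell cannot be told apart, and expression of the keratins was not measured.

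Keratins are the intermediate filament proteins of epithelial cells. A type I keratin always pairs with a type II keratin, and the pair changes with the kind of epithelium, Krt8 with Krt18 in simple epithelia, Krt5 with Krt14 in the basal layer and Krt1 with Krt10 in the upper layers of the epidermis. Cohesin, a ring of proteins, keeps sister chromatids joined until they part in mitosis and also shapes chromatin loops in interphase, where it is often found at sites bound by CTCF, a zinc finger protein whose motif has a direction.

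Each site is named by its cluster and its order along the chromosome (I-1 to I-21 and II-1 to II-11). The sequences that the results turn on are printed first, each 5′ to 3′ on the strand of its best match to a CTCF weight matrix. That matrix was learned from ESC RAD21 sites of the even-numbered autosomes. The match of 20 bases is in capitals, with 10 bases at either side in lower case. The first set holds the site with the largest gain in EB (I-9), those with the highest ESC score of each cluster (I-15 and II-9), those at either side of Krt8 and Krt18 (II-10 and II-11) and the best match of all cluster sites (II-5).
I-9, chr11:99326280-99326319, plus strand: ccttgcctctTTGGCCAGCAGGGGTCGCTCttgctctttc
I-15, chr11:100030507-100030546, minus strand: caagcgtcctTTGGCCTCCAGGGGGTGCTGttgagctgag
II-5, chr15:101350384-101350423, plus strand: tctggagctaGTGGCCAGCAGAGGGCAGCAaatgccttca
II-9, chr15:101814930-101814969, minus strand: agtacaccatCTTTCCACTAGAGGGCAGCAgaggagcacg
II-10, chr15:101818701-101818740, plus strand: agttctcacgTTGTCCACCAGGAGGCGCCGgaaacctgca
II-11, chr15:101896239-101896278, minus strand: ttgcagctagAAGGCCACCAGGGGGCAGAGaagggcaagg
The second set holds 4 sites that were listed in ESC only and whose matches have more than 1000 near copies in the genome, which are taken up again below with the motif.
I-4, chr11:99154320-99154359, minus strand: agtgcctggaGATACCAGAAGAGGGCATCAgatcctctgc
I-5, chr11:99169084-99169123, minus strand: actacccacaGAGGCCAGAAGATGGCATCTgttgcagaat
I-10, chr11:99409379-99409418, plus strand: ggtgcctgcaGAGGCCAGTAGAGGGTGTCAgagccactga
I-14, chr11:99920367-99920406, plus strand: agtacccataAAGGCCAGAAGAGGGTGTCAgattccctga
The third set holds the 101 bases around the summits of I-3 and II-6, given on the plus strand, which with II-1 were the 3 sites without a match at the looser of the cutoffs used.
I-3, chr11:99068126-99068226: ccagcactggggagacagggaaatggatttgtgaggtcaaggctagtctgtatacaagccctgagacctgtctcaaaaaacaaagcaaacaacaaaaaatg
II-6, chr15:101603319-101603419: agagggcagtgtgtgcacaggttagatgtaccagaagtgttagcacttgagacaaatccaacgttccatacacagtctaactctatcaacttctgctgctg

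The first question was how many RAD21 sites the keratin clusters hold and which of them are found in both ESC and EB. A site is a peak of the authors' lists, and the clusters were taken with 100 kb at either side. Together they held 32 ESC sites and 20 EB sites, and every EB site overlapped an ESC site by at least 1 bp. Thus 20 of 32 ESC sites (62.5%, 43.7 to 78.9) were shared, against 48.5% of all ESC sites, and 20 of 20 EB sites (100%, 83.2 to 100) were shared, against 67.8% of all EB sites. The shared sites of the clusters had higher peak scores, with medians of 240.88 in ESC and 200.8 in EB, against 123.7 and 116.5 over the autosomes. Among sites with a score of at least 100, 84.2% of ESC and 100% of EB sites of the clusters were shared, against 66.9% and 82.7% of all such sites. The count of 0 sites found in EB only, of 32, allows a share of up to 9.38%, while such sites made up 18.5% of the merged sites of the autosomes. The EB RAD21 library was the shallower of the pair, and a site cannot be taken as lost only because it is missing from the EB list.

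The clusters differed in where the ESC-only sites fell. The type I cluster (chr11:98994075-100231185 with flanks) held 21 ESC and 10 EB sites, and 11 of its sites were ESC only. The type II cluster (chr15:101077875-101962457) held 11 ESC and 10 EB sites, with II-7 its 1 ESC-only site. Per megabase this was 17.0 ESC sites (10.5 to 25.9) and 8.08 EB sites (3.88 to 14.9) in the type I cluster. In the type II cluster it was 12.4 ESC sites (6.21 to 22.3) and 11.3 EB sites (5.42 to 20.8). The autosomes as a whole held 6.30 ESC and 4.50 EB sites per megabase. Site density differed between the chromosomes, since chromosome 11 held 11.7 ESC and 7.08 EB sites per megabase and chromosome 15 held 5.96 and 4.65, and both the ESC and EB densities of chromosome 11 lay within the intervals of the type I cluster, whereas those of chromosome 15 lay below the intervals of the type II cluster. Between the first and the last keratin gene, without the flanks, there were 13 ESC and 6 EB sites in the type I cluster and 6 and 5 in the type II cluster. Without flanks the type II cluster thus held 8.76 ESC sites (3.22 to 19.1) and 7.30 EB sites (2.37 to 17.0) per megabase. The densities of chromosome 15 lay within these intervals, so they were below those of the type II cluster only with the flanks counted.

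**Figure D1:**
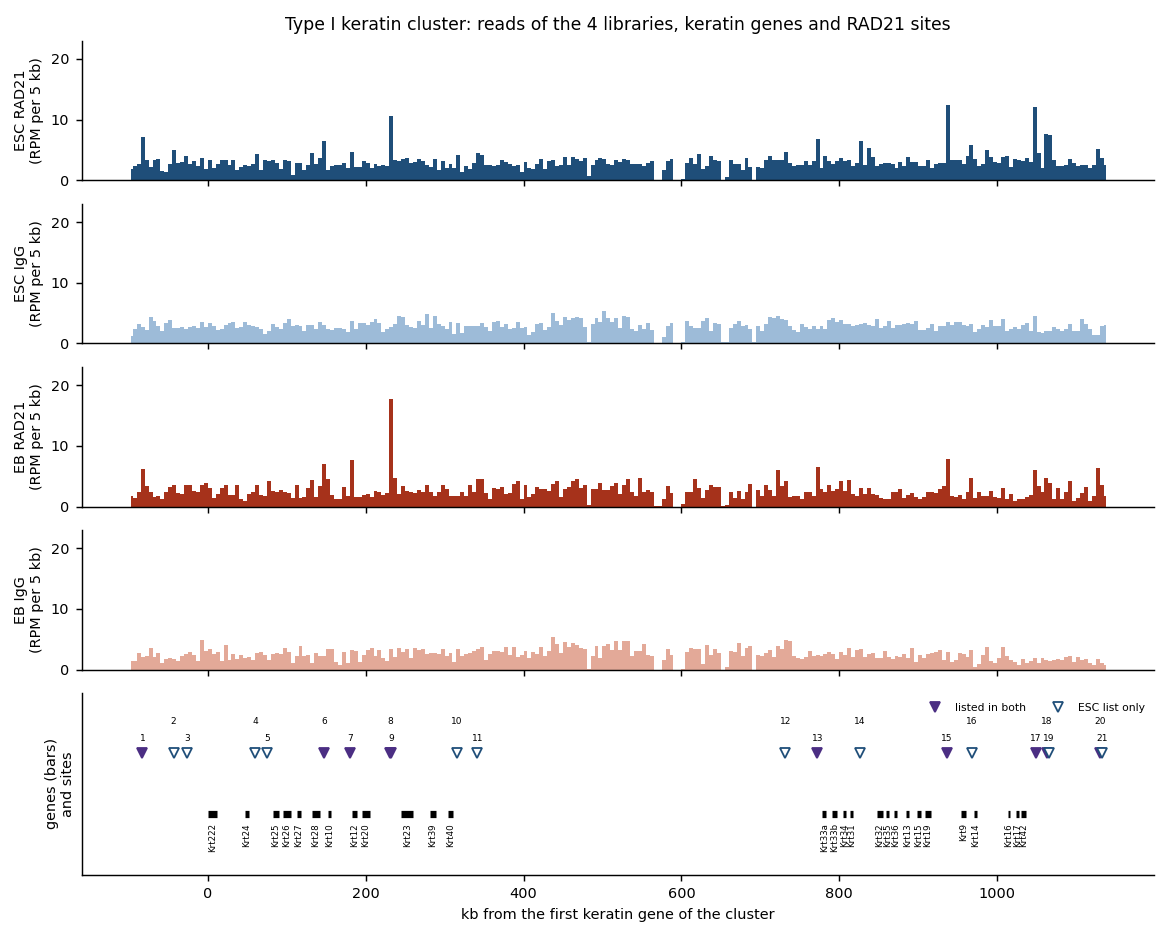
RAD21 and IgG reads along the type I cluster in bins of 5 kb, as RPM against the distance in kb from the first keratin gene, with the keratin genes as bars and the listed sites as numbered triangles, filled where listed in both. The 21 ESC and 10 EB sites lie on both sides of the stretch of Krtap genes, most of which holds no site.

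**Figure D2:**
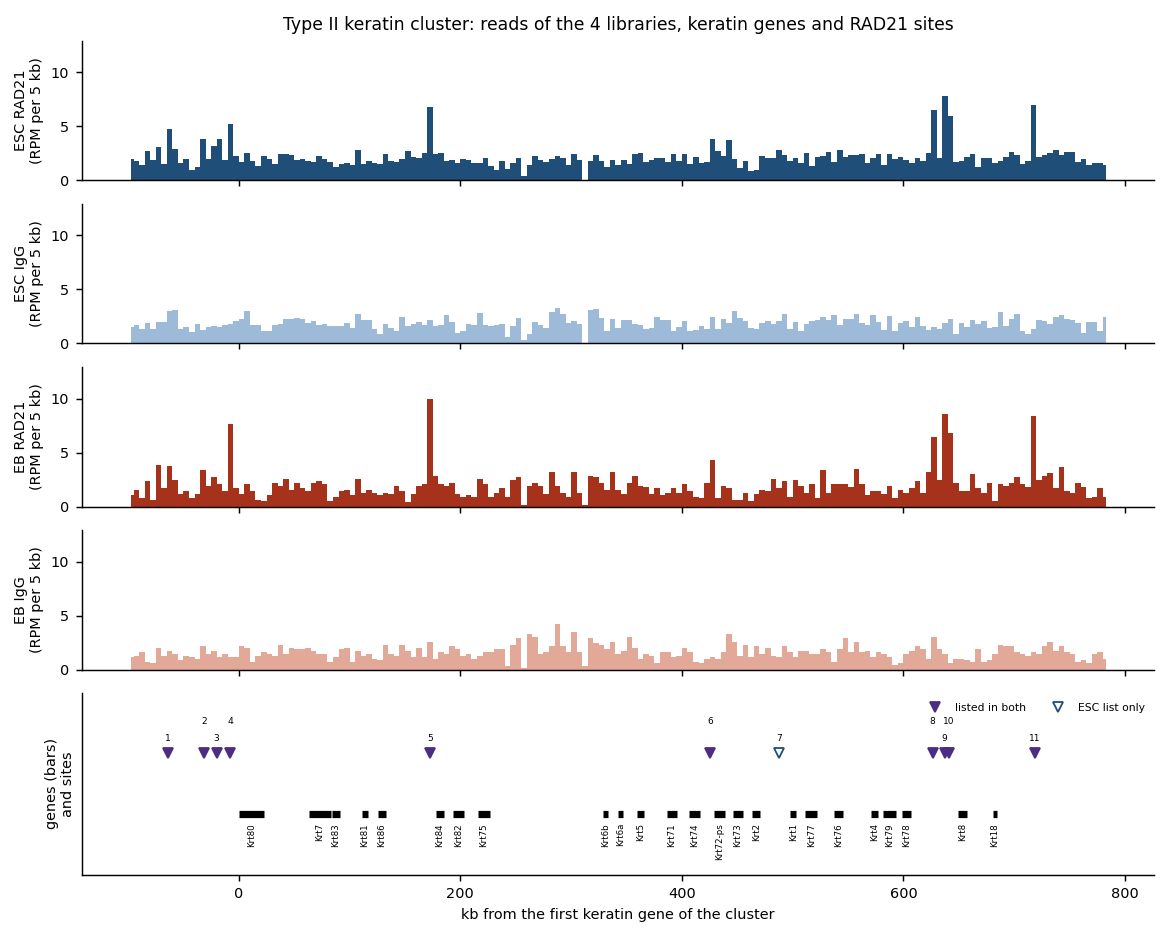
RAD21 and IgG reads along the type II cluster in bins of 5 kb, as RPM against the distance in kb from the first keratin gene, with the keratin genes as bars and the listed sites as numbered triangles, filled where listed in both. All but 1 of the 11 ESC sites are also listed in EB, and sites stand in groups at both ends of the cluster, with II-5, II-6 and II-7 standing singly between them.

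Most of the sites lay between genes. Of the 32 sites, 29 were intergenic and 3 lay in introns of genes that are no keratins (I-1 in Ccr7, I-14 in Gm11571 and I-17 in Gm14206), and 0 overlapped the body of a keratin gene. The share of intergenic sites among all sites and the part of the clusters that keratin genes cover are not given here. These counts therefore describe position only and do not show that sites avoid keratin genes. Most of the long stretches without a site were filled with keratin or Krtap genes. The longest in ESC ran over 388.81 kb from I-11 to I-12, over the Krtap genes from Krtap1-5 to Krtap9-5, and held 0 keratin starts. On chromosome 11, 33 of the 1384 gaps between neighbouring ESC sites were at least as long. In EB the gap from I-9 to I-13 measured 538.956 kb, and 34 of 840 EB gaps were at least as long. Reads did reach the stretch between I-11 and I-12, of which 79.4% of the positions start a 35-base sequence that occurs once in the genome, and 2808, 1563, 2802 and 1512 reads of ESC RAD21, EB RAD21, ESC IgG and EB IgG fell there. RAD21 and IgG were thus about as dense there as each other, and the bins in which all 4 libraries drop towards 0 in the plot of the type I cluster lie in this stretch.

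In the type II cluster the longest gap, of 251.861 kb from II-5 to II-6, held 8 keratin starts from Krt84 to Krt74, among them Krt5 and the wound keratins Krt6a and Krt6b. This length was not rare, since 111 of 598 gaps of chromosome 15 were at least as long. The gap from II-4 to II-5, of 179.04 kb, held 5 keratin starts (Krt80 to Krt86), and that from II-7 to II-8, of 137.545 kb, held 6 (Krt1 to Krt78). Krt8 and Krt18, the pair of the simple epithelia, stood by themselves in a gap of 76.208 kb between II-10 and II-11. This is a common length, since 316 of 598 gaps of chromosome 15 were at least as long. The CTCF match of II-10 was on the plus strand and that of II-11 on the minus strand, so that both pointed towards the gene pair. Among the 27 neighbouring pairs of sites with a match in both clusters, 8 pointed towards each other in this way.

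The strength of each site was compared by the reads within 250 bp of its summit, given below in the order ESC RAD21, EB RAD21, ESC IgG and EB IgG, and the ratio of EB to ESC is that of the RAD21 RPM. The score of a site is that of the authors' peak caller, a multiple of the negative log10 of its p-value, so that a higher score marks a clearer peak.

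In the first stretch of the type I cluster (Krt222 to Krt40) the inner root sheath keratins Krt25 to Krt28, the epidermal Krt10, the corneal Krt12 and the simple epithelial Krt20 and Krt23 are found. I-6, between Krt28 and Krt10, had 38, 29, 6 and 2 reads and a ratio of 1.35. I-7, between Krt10 and Krt12, had 29, 29, 4 and 6 reads and a ratio of 1.77 (1.02 to 3.07). Both RAD21 libraries stood above both IgG libraries at these sites. Between Krt20 and Krt23 a pair of sites lay 0.204 kb apart, I-8 with 47, 34, 4 and 2 reads and a ratio of 1.28 and I-9 with 25, 41, 3 and 0 reads. I-9 was the site that gained most, with a ratio of 2.91 (1.73 to 4.99). Its score was 112.05 in ESC and 351.14 in EB, which put it at rank 5870 of the ESC list and at rank 201 of the EB list. The matches of I-8 and I-9 were on opposite strands and pointed away from each other. I-4 (23, 7, 8 and 4 reads, ratio 0.54) and I-5 (16, 7, 1 and 2 reads, ratio 0.78), between Krt24 and Krt25, were listed in ESC only.

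In the Krtap stretch I-10 had 18, 3, 4 and 2 reads and a ratio of 0.30 (0.06 to 1.01), and I-12 had 17, 3, 3 and 3 reads and a ratio of 0.31. In EB both stood at the level of IgG. I-11, between Krtap3-1 and Krtap1-5, had 21, 9, 1 and 2 reads and a ratio of 0.76. I-13, at the border of the Krtap genes with the hair keratin Krt33a, was the 1 shared site of this stretch, with 43, 26, 4 and 2 reads and a ratio of 1.07.

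From Krt33a to Krt42 the cluster holds the hair keratins, Krt13 and Krt15, the simple epithelial Krt19, the palm and sole keratin Krt9, and Krt14, Krt16 and Krt17. I-15, between Krt19 and Krt9, was the highest scoring site of the cluster in ESC, at rank 7 of the ESC list with a score of 599.29, and its score in EB was 229.46. It was also the widest of the 32 sites, at 2235 bp. It had 52, 20, 3 and 0 reads at the summit and a ratio of 0.68, and over its whole length 142 ESC and 48 EB RAD21 reads and a ratio of 0.60 (0.42 to 0.84). I-16, between Krt9 and Krt14, was listed in ESC only and had 35, 9, 2 and 3 reads and a ratio of 0.46 (0.19 to 0.97). I-14, between the hair keratins, had 33, 9, 4 and 2 reads and a ratio of 0.48.

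Beyond Krt42, I-17 had 85, 23, 7 and 2 reads, the highest ESC RAD21 count of the 32 sites, and a ratio of 0.48 (0.29 to 0.77). I-18 and I-19, between Krt42 and the translation factor gene Eif1, had 55, 18, 5 and 4 reads (ratio 0.58, 0.32 to 1.00) and 37, 10, 3 and 4 reads (ratio 0.48, 0.21 to 0.98). All 3 were lower in EB, while I-20, between Hap1 and the plakoglobin gene Jup, had 51, 29, 2 and 0 reads and a ratio of 1.01. At the other end of the cluster I-1, in the chemokine receptor gene Ccr7, had 57, 29, 3 and 2 reads and a ratio of 0.90. Between it and Krt222 there were the ESC-only sites I-2, with 25, 7, 4 and 0 reads and a ratio of 0.50, and I-3, with 13, 5, 9 and 7 reads and a ratio of 0.68. At I-3 RAD21 over IgG was the lowest of the 32 sites in ESC and in EB, and it is also one of the sites without a CTCF match. The last ESC-only site, I-21 beside Jup, had 16, 5, 2 and 1 reads and a ratio of 0.55.

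In the type II cluster most ratios were above 1. The group of II-8, II-9 and II-10, between Krt78 and Krt8, had 44, 34, 2 and 3 reads (ratio 1.37), 52, 31, 5 and 0 reads (ratio 1.06) and 35, 25, 1 and 1 reads (ratio 1.27). II-9 was the highest scoring site of the cluster in ESC, with a score of 461.92 at rank 74. II-11, between Krt18 and Eif4b, had 57, 39, 2 and 3 reads and a ratio of 1.21. All 4 sites around Krt8 and Krt18 thus stood far above IgG in both ESC and EB. II-5, at the hair keratin Krt84, had 32, 29, 4 and 3 reads and a ratio of 1.61, and II-6, between the inner root sheath keratin Krt74 and Krt72-ps, had 17, 13, 2 and 1 reads and a ratio of 1.35. The ESC-only site II-7 lay between the epidermal keratins Krt2 and Krt1 and had 19, 3, 2 and 0 reads and a ratio of 0.28 (0.05 to 0.95), the lowest of the 32. Of the 4 sites before Krt80, II-1 had 26, 16, 6 and 3 reads and a ratio of 1.09, II-2 had 20, 15, 3 and 2 reads and a ratio of 1.33, and II-4 had 32, 27, 3 and 1 reads and a ratio of 1.49. II-3, with 36, 12, 5 and 3 reads and a ratio of 0.59, was the 1 shared site of this cluster whose ratio was below 1.

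**Figure D3:**
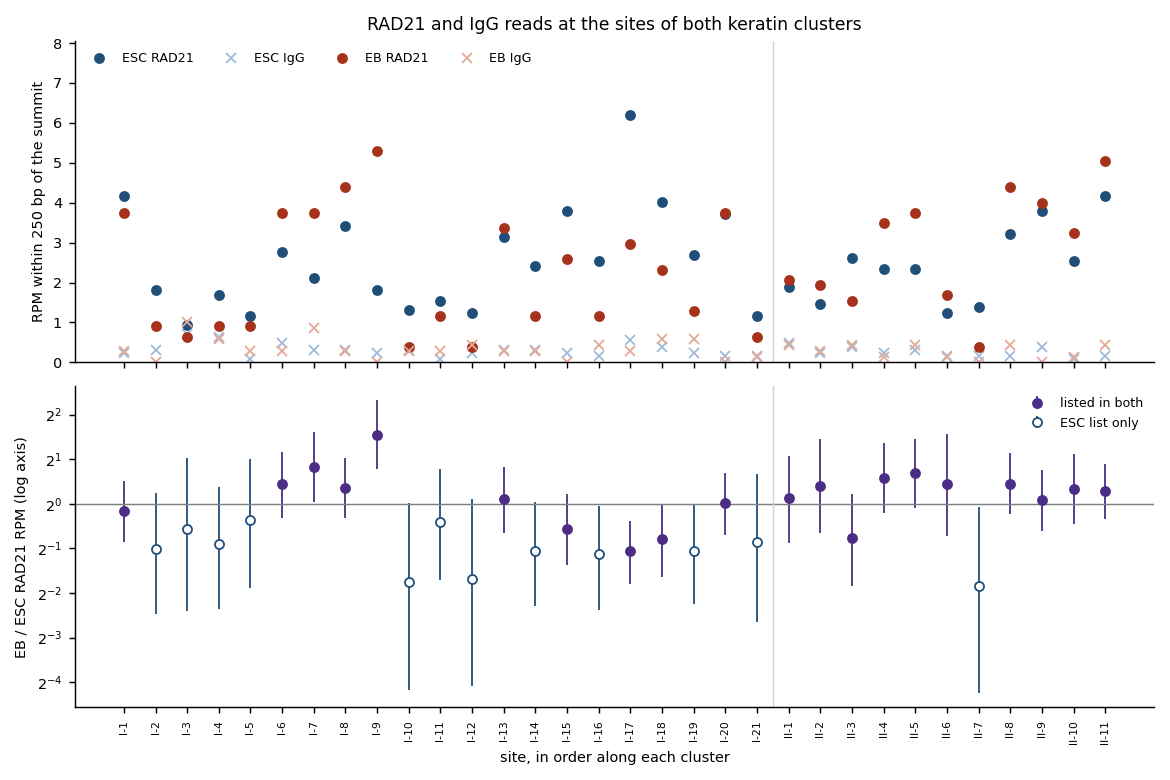
Reads of the 4 libraries within 250 bp of each of the 32 summits as RPM, and the ratio of EB to ESC RAD21 RPM with its 95% counting interval on a log axis. The intervals of I-7 and I-9 lie above 1 and those of I-16, I-17, I-19 and II-7 lie below it.

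Over the 32 sites the ratio was above 1 at 15, 6 of 21 in the type I cluster and 9 of 11 in the type II cluster, and its interval excluded 1 at 6 (I-7, I-9, I-16, I-17, I-19 and II-7). Scaled by chromosome it excluded 1 at 4, since the upper limits of I-16 and I-19 were then 1.10 and 1.11. With 1 read added to each count, 5 of 32 sites were at least 2-fold lower in EB (I-10, I-12, I-16, I-17 and II-7), where 23.4% of all merged sites of the autosomes were, and 1 was at least 2-fold higher (I-9), where 19.4% were. These are 15.6% and 3.12% of the 32 sites, both below the share among all sites, and the count of lower sites ranged from 1 to 12 over the settings tried. The clusters held no EB-only site, a class that gave 2569 of the 3588 higher sites of the autosomes. Among shared sites 1 of 20 was higher and 1 lower in the clusters, against 1017 and 64 of 7312 over the autosomes. Among ESC-only sites 4 of 12 were lower, against 4269 of 7757. The median log2 ratio was −0.51 in the type I cluster, 0.36 in the type II cluster and 0.03 over all sites. Shared sites had a median of 0.32 in the clusters and 0.38 over all shared sites, and ESC-only sites had medians of −0.91 and −1.11. A site is ESC only because its EB reads were not called a peak, so its low ratio was fixed in part by the listing. The medians of the clusters depend on this too, since 11 of 21 type I sites and 1 of 11 type II sites were ESC only. The highest count in EB within either cluster, 41 reads, was that of I-9.

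The IgG libraries and the base composition were set beside these ratios. Reads of all kinds were denser on chromosome 11 than on the autosomes as a whole (0.418 RPM per kb), at 0.592 RPM per kb in ESC RAD21, 0.521 in EB RAD21, 0.575 in ESC IgG and 0.503 in EB IgG. The ratio of EB to ESC over chromosome 11 was 0.881 in RAD21 and 0.874 in IgG, and over chromosome 15 it was 1.03 and 1.04. From Krt33a to Krt42, with I-15 and I-16 inside, the ratio over the whole stretch was 0.667 (0.617 to 0.720) in RAD21 and 0.745 (0.686 to 0.809) in IgG, and in the 100 kb beyond Krt42 it was 0.718 (0.641 to 0.803) in RAD21 and 0.611 (0.520 to 0.715) in IgG. Over the type I cluster with its flanks the ratio was 0.859 (0.830 to 0.888) in RAD21 and 0.857 (0.826 to 0.889) in IgG, and over the type II cluster with its flanks 0.901 (0.860 to 0.944) in RAD21 and 0.857 (0.811 to 0.904) in IgG. Scaled by chromosome, the IgG ratio was 0.980 in the type I and 0.827 in the type II cluster. The ratio at the sites was mostly below 1 in the type I cluster and mostly above 1 in the type II cluster. The part of the background in this was not tested. Over background windows of the genome split into 5 classes by their GC content, the log2 of EB over ESC went from 0.49 in the class of lowest GC to −0.55 in that of highest GC in RAD21 and from 0.40 to −0.53 in IgG. The median GC content of the sites was 48.5% in the type I cluster and 52.9% in the type II cluster. It was 51.9% at shared and 48.2% at ESC-only sites of the clusters, and 44.9% and 46.3% at those of all autosomes. The part of base composition in these differences was not tested. With each site centred on its own GC class, the median log2 ratio was −0.13 in the type I cluster, 0.84 in the type II cluster and 0.29 over all sites, and scaled by chromosome it was −0.33 in the type I and 0.31 in the type II cluster.

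The authors' lists depend on depth, so sites were also called with a simple window caller run alike on every RAD21 library. At full depth it called 44 sites in ESC and 23 in EB within the clusters, among them all 32 ESC sites and all 20 EB sites of the lists. With the ESC library thinned at random to the depth of the EB library in 3 draws, it called 24, 30 and 29 sites in ESC, which is closer to the 23 of EB. In these draws 17 of the 20 shared sites were called in all 3 draws and the other 3 in 2. Of the 12 ESC-only sites, 3 were called in every draw (I-2, I-16 and I-19), 3 in 2 draws (I-4, I-5 and I-14), 3 in 1 draw (I-10, I-12 and II-7) and 3 in none (I-3, I-11 and I-21). At EB depth the caller thus missed 9 of the 12 ESC-only sites and 3 of the 20 shared sites in at least 1 draw. It is not the caller that made the lists, and the part of depth in the lists was not tested.

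The next question was whether the keratin sites carry the CTCF motif. At the cutoff that 1e-05 of background positions pass, a match stood within 150 bp of the summit at 11 of 32 ESC sites (34.4%, 18.6 to 53.2), against 37.3% of all ESC sites of the odd-numbered autosomes and 0.255% of background windows of the same length. At EB sites it was 9 of 20 (45.0%, 23.1 to 68.5), against 26.9% of all EB sites. At the looser cutoff of 1e-04 it was 29 of 32 (90.6%, 75.0 to 98.0) in ESC, against 85.3% of all sites and 2.94% of background windows, and 18 of 20 (90.0%, 68.3 to 98.8) in EB, against 78.7%. Both strands were searched. The matrix was learned from ESC sites alone and none was learned from EB sites, so the shares of ESC and EB sites are not on equal terms. A match is a description of the letters and does not show that CTCF was bound. The 29 matches were on the plus strand at 13 sites and on the minus strand at 16. Of the 27 neighbouring pairs of sites with a match, 8 pointed towards each other, 8 away from each other and 11 in the same direction. The summit lay on the 3′ side of the centre of the match at 20 sites and on the 5′ side at 9, with a median signed offset of 30.5 bp towards the 3′ side. Over all their RAD21 peaks the authors report the other side, with RAD21 placed 5′ of the motif. The difference was not tested. Strands, pair directions and offsets over all sites are not given here, so these counts are a description of the cluster sites only.

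The matches differed most in how often they recur in the genome. Each match of 20 bases was searched for in chromosomes 1 to 19, X and Y on both strands with at most 2 mismatches, the site itself included. I-4 had 18177 such copies, I-14 had 4227, I-10 had 2980 and I-5 had 2236, and all 4 were listed in ESC only. The next were II-5 with 508, I-12 with 330 and I-1 with 101, and every other match had 80 or fewer, down to the 3 of I-13. Copies without any mismatch numbered 34 for I-4, 67 for I-14, 14 for I-10 and 7 for I-5. The matches of I-10 and I-14, printed above, were identical at 18 of 20 bases, and with their flanks at 30 of 40. I-4 and I-10 were identical at 30 of these 40 bases as well and at 15 of 20 within the match, so that their likeness went past the motif. Of the 35-base sequences around I-4, I-5 and I-14, 100% occur once in the genome when no mismatch is allowed, and 98.8% of those around I-10 do. Near copies of these 35-base sequences were not counted, so how well reads can be placed at these sites was not tested. Repeat families such as the B2 elements of rodents are known to carry CTCF motifs, and no repeat annotation was used here to say whether these 4 belong to one.

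The same sequences were then looked up at all sites of the autosomes. This set was chosen after the keratin values had been seen and is a description. Of 588 merged sites whose match differed by at most 2 bases from that of I-4, I-5, I-10 or I-14, 526 (89.5%) were listed in ESC only, 43 (7.31%) were shared and 19 (3.23%) were listed in EB only. Of 14241 sites with another match, 40.6% were listed in ESC only and 45.4% were shared. The sites like the repeated ones had a mean of 22.4 ESC RAD21, 5.16 EB RAD21, 3.12 ESC IgG and 1.47 EB IgG reads within 250 bp of the summit, and a median log2 ratio of EB to ESC of −1.45, against 0.03 at sites with another match. Their ESC RAD21 counts were close to the mean of 24.5 reads of the other sites with a match, while their EB counts were far lower than the 14.8 reads there. The lists were called from these same reads, so these counts are no separate evidence for the share listed in ESC only. Among sites with an ESC score of at least 100, 152 of 181 (84.0%) were ESC only, against 1869 of 6059 (30.8%) with another match. Without the 4 keratin sites it was 522 of 584 (89.4%). Their median GC content was 43.1%, and that of sites with another match 45.3%. Neither the part of GC content nor that of any other property in this difference was tested.

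**Figure D4:**
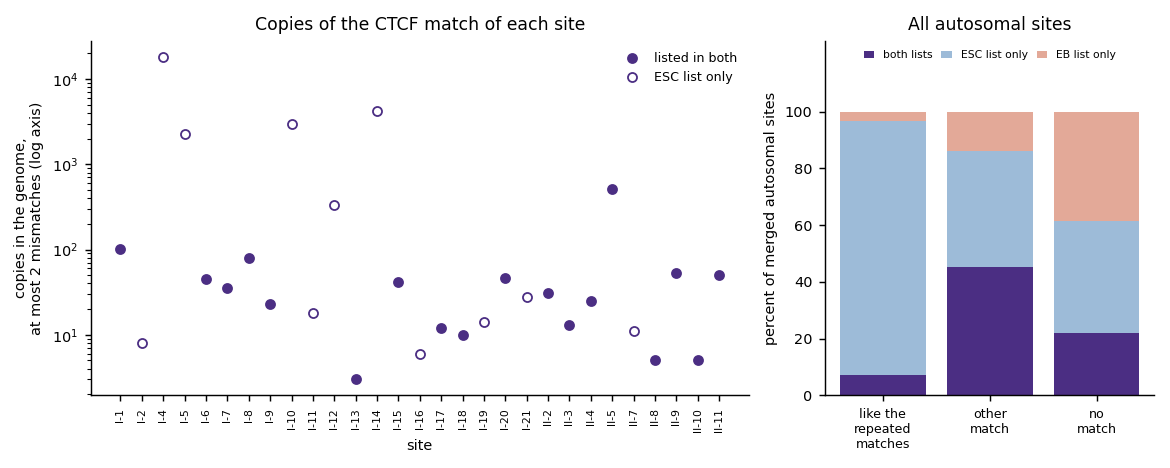
Copies in the genome of the CTCF match of each keratin site, with at most 2 mismatches, on a log axis, and the share of all merged autosomal sites listed in both, in ESC only or in EB only, by kind of match. The 4 matches with over 1000 copies are all at ESC-only sites, and 89.5% of the 588 autosomal sites with such a match are ESC only.

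The last question was whether RAD21 stood at the keratin gene starts themselves, counted within 1 kb of each start. In ESC and in EB, 0 of 51 starts had a listed site within 1 kb, which allows a share of up to 5.88%, against 2.31% of all protein-coding genes in ESC and 2.22% in EB. Within 5 kb there was 1 start in each, Krt28 at 4928 bp from I-6, against 9.71% and 7.89%. Within 10 kb there were 9 in ESC (Krt24, Krt28, Krt10, Krt12, Krt40, Krt31, Krt9, Krt14 and Krt74), against 18.3%, and 4 in EB (Krt28, Krt10, Krt12 and Krt74), against 13.3%. The shares of 9 of 51 and 4 of 51 stood near or below those of all genes. The median distance to the nearest ESC site was 28.7 kb for the keratins and 36.6 kb for all genes. It was 21.1 kb for the type I genes, against 22.2 kb for all genes of chromosome 11. For the type II genes it was 34.1 kb, against 33.1 kb for all genes of chromosome 15.

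RAD21 at the starts stood close to IgG. The median ratio of RAD21 to IgG, with 1 read added, was 1.05 in ESC and 1.07 in EB over the 51 genes, against 1.18 and 1.25 over all genes. In ESC 1 of 51 starts was at least 2-fold over IgG, that of Krt8, against 16.6% of all genes. In EB 4 were (Krt20, Krt36, Krt71 and Krt8), against 25.6%. The starts are poor in CpG, with a median ratio of observed to expected CpG of 0.247 against 0.475 over all genes, at a like GC content (50.9% against 51.3%). Counts were low, from 5 to 24 ESC RAD21 and from 0 to 10 EB RAD21 reads at a start, so that smaller differences at single genes were not detectable at this depth.

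The simple epithelial keratins, the first to be made in the embryo, were measured first. Krt8 had 17, 7, 6 and 2 reads, and its RAD21 was 2.36-fold over IgG in ESC (0.98 to 8.06 on the raw counts) and 2.39-fold in EB (0.60 to 30.9). Both intervals include 1. It was the 1 gene past 2-fold in both. Its partner Krt18 had 9, 4, 6 and 2 reads and ratios over IgG of 1.31 and 1.49. Krt19 had 12, 9, 12 and 6 reads, Krt7 had 13, 5, 9 and 6, and Krt23 had 13, 4, 14 and 7. Krt20, a keratin of the gut lining, had 6, 8, 8 and 3 reads, 2.28-fold higher in EB than in ESC with an interval on the raw counts of 0.72 to 8.26. Pooled over the 6 genes, the ratio of EB to ESC was 0.937 (0.611 to 1.41).

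Of the 10 keratins of stratified epithelia and epidermis, Krt9, which is made in palms and soles, had 23, 4, 12 and 2 reads and a ratio of EB to ESC of 0.369 (0.08 to 0.90). Krt14 of the basal layer had 14, 3, 11 and 1 reads and a ratio of 0.472 (0.07 to 1.36), and its partner Krt5 had 9, 5, 10 and 3 and a ratio of 1.06 (0.26 to 3.27). Both the RAD21 and the IgG levels of Krt9 and Krt14 were lower in EB. Krt1 and Krt10, the pair of the upper layers, had 10, 6, 10 and 4 reads and 8, 6, 5 and 9 reads, and RAD21 did not stand clear of IgG at either. Krt4, which pairs with Krt13 in the lining of the mouth and oesophagus, had 14, 3, 7 and 4 reads, and Krt13 had 23, 6, 12 and 4. The pooled ratio of the 10 genes was 0.609 (0.424 to 0.860) in RAD21 and 0.785 (0.538 to 1.13) in IgG.

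The 5 keratins of wounds and skin appendages had a pooled ratio of 0.728 (0.427 to 1.20). Among them Krt17 had 18, 5, 17 and 2 reads and Krt6b had 6, 8, 6 and 6. Only 67.0% of the 35-base sequences around Krt6b, 67.5% around Krt6a and 68.2% around Krt16 occur once in the genome, so that near copies can share reads there and these counts are uncertain. The 7 inner root sheath keratins had a pooled ratio of 0.650 (0.422 to 0.978). Krt71 had 11, 4, 7 and 1 reads and Krt28, nearest of all keratins to a site, had 24, 10, 20 and 6.

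The 14 hair keratins had a pooled ratio of 0.667 (0.499 to 0.882) in RAD21 and of 0.692 (0.515 to 0.922) in IgG. Krt33a had 24, 5, 13 and 9 reads and a ratio of 0.425 (0.11 to 0.99), Krt36 had 13, 9, 13 and 3, and Krt81 had 5, 6, 7 and 3 and a ratio of 2.07 (0.54 to 8.81). At Krt81 and Krt86 the unique share was 69.8% and 74.2%, and their counts are uncertain in the same way. The 9 remaining genes had a pooled ratio of 0.532 (0.349 to 0.791). Krt77 had 16, 2, 9 and 3 reads and a ratio of 0.313 (0.02 to 0.94), Krt79 had 8, 0, 4 and 1, and Krt80 had 5, 0, 3 and 4.

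**Figure D5:**
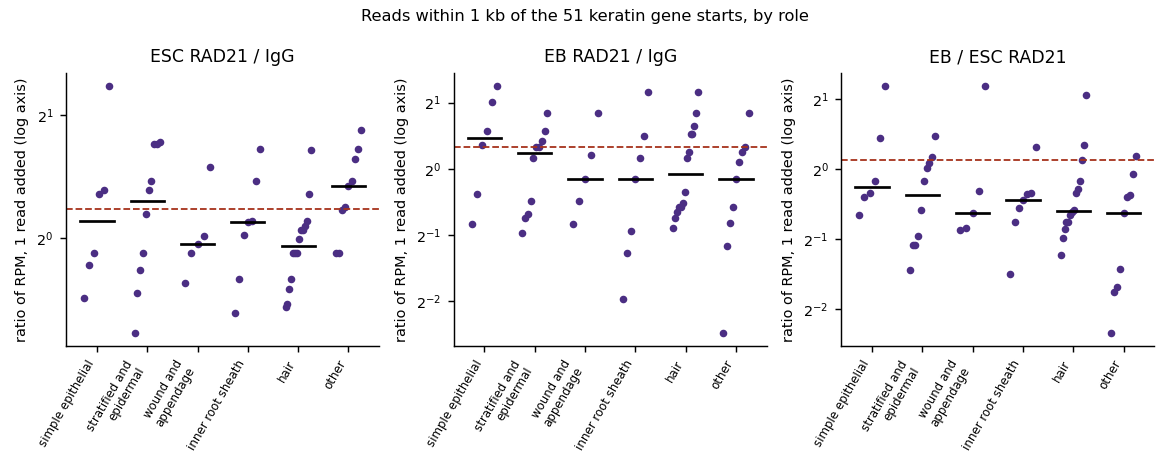
Ratios of RPM within 1 kb of the 51 keratin gene starts by role, with 1 read added, on log axes: RAD21 to IgG in ESC, RAD21 to IgG in EB and EB to ESC in RAD21. Points are genes, short bars are medians of a role and the dashed line is the median of all autosomal protein-coding genes, above and below which the medians of RAD21 to IgG lie, while all 6 medians of EB to ESC lie below it.

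Over all 51 starts, 9 were at least 2-fold lower in EB (Krt26, Krt33a, Krt9, Krt14, Krt42, Krt80, Krt77, Krt4 and Krt79), against 11.2% of all genes, and 3 were at least 2-fold higher (Krt20, Krt81 and Krt6b), against 13.1%. The interval on the raw counts excluded 1 at Krt33a, Krt9 and Krt77. The starts held 643, 241, 542 and 238 reads in sum. The pooled ratio of EB to ESC was 0.664 (0.570 to 0.771) in RAD21 and 0.799 (0.683 to 0.932) in IgG, against 1.07 and 0.931 over all genes. Over the gene starts of chromosome 11 it was 0.979 in RAD21 and 0.820 in IgG, and over those of chromosome 15 it was 1.04 and 0.862. IgG was thus lower in EB at the keratin starts, as it was over the starts of both chromosomes. Pooled RAD21 over IgG at the keratin starts was 1.09 (0.971 to 1.22) in ESC and 0.906 (0.755 to 1.09) in EB, both with 1 inside the interval.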

How the data were processed

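RAD21 and IgG libraries of ESC and EB were sequenced on a Genome Analyzer II, and reads, peaks and summits refer to mm9, which the submitters' processing notes name. The authors deposited read positions without duplicates (the aligner is not given in the sources used here), peaks called with MACS against IgG, whose score is a multiple of the negative log10 of the p-value, and summits, whose deposited height is a signal of piled-up reads. The last line of the EB IgG read file is broken, as are 7 lines of the ESC IgG file, and these lines were left out.

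Each read was moved to the centre of its fragment, whose length was estimated as 205 bp in ESC and 199 bp in EB, and counted within 250 bp of summits and 1 kb of gene starts. Counts were scaled to 1000000 autosomal reads. Intervals are exact (conditional binomial for ratios, Clopper-Pearson for shares, Poisson for densities). Fold calls and gene start ratios use 1 added read, site ratios none. With 1 library a group no p-value was computed, and the IgG libraries are the background of every value. Background windows stood on a grid of 50000 bp, at least 2000 bp from any site. The window caller used windows of 400 bp and a Poisson cutoff of 1e-05. The members and lists were chosen with earlier results of these data known. Genes were named by role from the gene lists and by the fold of 2, and sites by rank, interval or position; the repeated matches were named after their values were seen. Krt72, Krt85 and Krt87 were not matched by symbol. Scripts were tested on simulated data and used Python 3.11.15, NumPy 2.4.6, SciPy 1.17.1, pandas 2.3.3, Numba 0.67.0 and Matplotlib 3.10.9. Alternatives covered the flank, the score, the overlap, the scaling, the added read, the window, the motif cutoff and the caller.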

Additional observations from a re-analysis of the deposited data

How the results depend on the processing

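Each of 64 results was recomputed under its alternatives, which gave 487 comparisons, of which 453 stayed within their limits (the counting interval of a site or share, the 95% order-statistic interval of a median, 1.5 times for a count of sites or genes) and 34, none that of a single site, did not. No value past 2-fold changed its direction, but smaller ones did, at 17 of 320 comparisons of single sites and 9 of 84 of medians: the median log2 ratio of all cluster sites went from −0.19 to 0.20 within GC classes, that of the type II sites from 0.36 to −0.03 when centred on the shared sites, and that of I-15 from −0.51 to 0.04 within GC classes. With a score of at least 100 the clusters held 19 ESC sites in place of 32, and 84.2% of them were shared in place of 62.5%. Without flanks they held 19 ESC and 11 EB sites. Sites at least 2-fold lower in EB, 5 as reported, numbered 3 when scaled by chromosome, 12 when centred on the shared sites, 9 with IgG subtracted, 1 within GC classes, 3 with 2 reads added and 3 over the whole merged site, an alternative chosen after seeing the data. Sites at least 2-fold higher, 1 as reported, numbered 2 by chromosome and 4 within GC classes. Within GC classes the median log2 ratio of the type II sites was 0.84 in place of 0.36, that of all keratin starts −0.17 in place of −0.44, and that of the type II starts 0.014 in place of −0.37, and with 2 reads added that of all starts was −0.29. Starts at least 2-fold over IgG numbered 3 in ESC within 500 bp and 3 within 2 kb in place of 1, and in EB 2 within 2 kb, 7 with 0.5 reads and 1 with 2 reads added in place of 4. Starts lower in EB numbered 17 within 500 bp in place of 9, and higher ones 0 within 2 kb in place of 3. Without the reads near sites, RAD21 over IgG in the type I cluster was 0.936 in ESC and 0.918 in EB in place of 1.01 and 1.00, and in the type II cluster 1.04 and 1.02 in place of 1.12 and 1.15. Scaled by chromosome, the ratio of EB to ESC over the type I cluster was 0.991 in place of 0.873. At the motif cutoff of 1e-04 the shares were 90.6% in ESC and 90.0% in EB. Starts with a site within 5 kb were 1 in ESC and 1 in EB, and within 10 kb 9 and 4, in place of 0. The cause of these moves was not tested. No paired analysis was possible because each group has 1 library. The EB depth and the low counts at gene starts limit what can be seen.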

Other observations

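Genes of proteins that hold or control keratin filaments were counted in the same way at their starts. Of 19 genes of cell junctions and attachment, 8 were at least 2-fold over IgG in ESC and 5 in EB, where 16.6% and 25.6% of all genes were. Plec encodes plectin, which ties keratin filaments to hemidesmosomes. It had 15, 15, 4 and 1 reads in ESC RAD21, EB RAD21, ESC IgG and EB IgG. Its RAD21 was 2.94-fold over IgG in ESC (1.10 to 14.3 on the raw counts) and 7.16-fold in EB (2.07 to 565). An EB site lay 620 bp from its start. Itga6, an integrin of the hemidesmosome, had 28, 6, 6 and 9 reads. It was 3.81-fold over IgG in ESC (1.74 to 12.7) and 0.627-fold in EB (0.17 to 1.88). Of 8 transcription factor genes of epithelia, 5 were at least 2-fold over IgG in ESC and 3 in EB. Tcfap2a, which encodes the factor AP-2 alpha, had 34, 8, 5 and 2 reads, the highest ESC RAD21 count of the 8.

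Of 15 genes of other intermediate filament proteins, 4 were at least 2-fold over IgG in ESC and 8 in EB, against 1 and 4 of the 51 keratins. Their starts had a median ratio of observed to expected CpG of 0.700, against 0.247 for the keratins, and the part of base composition in the counts was not tested. Gfap, the filament of astrocytes, had 38, 32, 18 and 10 reads, with an ESC site 146 bp and an EB site 142 bp from its start. Synm, which encodes synemin, had 21, 21, 2 and 5 reads, with an EB site 237 bp and the nearest ESC site 29219 bp from its start. It was 6.74-fold over IgG in ESC (2.36 to 84.9 on the raw counts) and 3.28-fold in EB (1.38 to 12.8). Nes, which encodes nestin, had 26, 12, 9 and 5 reads and was 2.48-fold over IgG in ESC (1.21 to 6.44). An ESC site lay 754 bp and the nearest EB site 9963 bp from the Nes start. Vim, which encodes vimentin, had 12, 14, 8 and 4 reads. It was 2.69-fold over IgG in EB (0.98 to 13.1), an interval that includes 1.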
